A study of Mus musculus with 42 samples.

Results

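The genomic sites bound by HOXC6, a brachial Hox factor, were compared with those bound by HOXC9, a thoracic Hox factor, in mouse embryoid bodies (EBs) at day 3 of motor neuron differentiation. Each binding list was restricted to chromosomes 1 to 19 and X and ranked by the estimated number of ChIP reads at each event, and the 10000 strongest events of each factor were kept. These 20000 events came from 91965 listed events of the pair of factors, 17898 for HOXC6 and 74067 for HOXC9. An event was scored as shared when any event of the other factor, at any rank, lay within 100 bp. This divided the strongest HOXC6 events into 8011 shared and 1989 HOXC6-only sites, and the strongest HOXC9 events into 4427 shared and 5573 HOXC9-only sites.

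The study induced tagged Hox factors in mouse embryonic stem (ES) cells and mapped them by ChIP-seq, and 4 of its 42 samples carry this comparison, 2 libraries for each factor. Both lines, Ainv15(iFlag.Hoxc6) and Ainv15(iFlag.Hoxc9), hold 1 copy of a Flag-tagged transgene at the Hprt locus that doxycycline (Dox) switches on. EBs of both lines received retinoic acid (RA) and the Sonic hedgehog pathway agonist SAG from day 0, were given Dox on day 2 and were crosslinked 24 h later, and the same Flag antibody was used on both. The libraries therefore report an introduced, tagged protein in 1 cell line per factor, and the event lists hold no expression values with which to check the identity of the cells.

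Hox proteins are homeodomain transcription factors that give cells their position along the head-to-tail axis. In the spinal cord, Hoxc6 is used by motor neurons at forelimb level and Hoxc9 by those of the trunk. Homeodomains recognize short AT-rich sequences, of which TAAT is the common core. Factors related to Abdominal-B, the posterior group to which HOXC9 belongs, also bind cores such as TTTAT, and the cofactors PBX and MEIS extend the recognized sequence.

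The depth of the libraries differed between the factors. The HOXC6 libraries held 17.7 M (mega, as for bases) and 16.4 M aligned reads, of which 8.00% and 7.00% were assigned to binding events. The HOXC9 libraries held 26.8 M and 25.6 M, of which 17.4% and 39.8% were assigned to events, so the pair of HOXC9 libraries was itself unequal. A second name given for the latter library mentions another day (Day5), while its title and treatment give day 3. Event values were deposited for the pooled libraries only, so no value with or without that library could be formed. No test over replicates could be run on these pooled values, and none is given. The deposited edgeR comparisons between conditions were not used. The 95% intervals below (Wilson for a share, Newcombe for a difference of shares) cover counting error only and treat neighboring events as independent. No run code in the labels was shared by HOXC6 and HOXC9 libraries at day 3, and run and factor cannot be told apart at that stage.

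The strongest sites show what the classes look like in sequence. The windows below are 101 bp of the plus strand centered on the event, from RefSeq GRCm38.p6 (mm10), with TAAT and TTTAT, or their complements ATTA and ATAAA, in capitals. The first set holds the 3 HOXC6-only sites with the highest values. They were nearest to the transcription start sites (TSSs) of Thbs1 (a matrix glycoprotein), Pfkp (a glycolytic phosphofructokinase) and Agtpbp1 (a tubulin-modifying enzyme), at 21.1, 18.4 and 17.8 RPM (estimated reads at the event per M aligned reads).
HOXC6-only site nearest Thbs1, chr2:117939035-117939135: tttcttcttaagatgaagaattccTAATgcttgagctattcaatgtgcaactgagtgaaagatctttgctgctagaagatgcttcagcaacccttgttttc
HOXC6-only site nearest Pfkp, chr13:7191726-7191826: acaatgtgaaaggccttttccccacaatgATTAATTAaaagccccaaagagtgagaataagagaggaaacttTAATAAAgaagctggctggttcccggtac
HOXC6-only site nearest Agtpbp1, chr13:59517783-59517883: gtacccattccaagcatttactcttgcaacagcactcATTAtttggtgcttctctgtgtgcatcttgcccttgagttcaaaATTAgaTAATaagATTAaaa
They lay 173, 543 and 15.4 kb from those TSSs. The Thbs1-nearest and Agtpbp1-nearest sites lay in introns and the Pfkp-nearest site was intergenic. Introns of any annotated gene were counted, which need not be the gene named. All 3 carried TAAT, and 1 of 3 carried TTTAT. Each also had a HOXC9 event just outside the sharing limit, at 0.110, 0.126 and 0.130 kb, so the leading HOXC6-only sites were not free of HOXC9 nearby.

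The second set holds the 3 HOXC9-only sites with the highest values, nearest to Prok2 (a secreted signaling peptide), Rgs4 (a regulator of G protein signaling) and Dab2 (an endocytic adaptor), at 92.5, 90.7 and 83.7 RPM.
HOXC9-only site nearest Prok2, chr6:99939138-99939238: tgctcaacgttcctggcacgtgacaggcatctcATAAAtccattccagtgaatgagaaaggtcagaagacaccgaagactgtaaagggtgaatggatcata
HOXC9-only site nearest Rgs4, chr1:169714905-169715005: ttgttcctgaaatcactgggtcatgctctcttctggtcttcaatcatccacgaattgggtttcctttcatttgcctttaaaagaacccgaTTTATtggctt
HOXC9-only site nearest Dab2, chr15:5941116-5941216: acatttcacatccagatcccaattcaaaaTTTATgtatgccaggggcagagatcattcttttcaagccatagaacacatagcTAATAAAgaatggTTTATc
They lay 213, 32.7 and 359 kb from those TSSs. The Prok2-nearest site was in an intron of some annotated gene, and the Rgs4-nearest and Dab2-nearest sites were intergenic. The closest HOXC6 events were 20.9, 52.1 and 86.3 kb away. All 3 carried TTTAT, and TAAT was present in the Dab2-nearest window alone. Each of these sites had an event of both HOXC6 and HOXC9 at day 4.

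The third set holds 2 of the 3 shared pairs with the highest combined values (the geometric mean of both factors' RPM), nearest to Rarb (retinoic acid receptor beta) and Pter.
shared site nearest Rarb, chr14:16733651-16733751: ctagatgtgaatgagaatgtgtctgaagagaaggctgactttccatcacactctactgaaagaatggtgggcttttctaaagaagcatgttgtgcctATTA
shared site nearest Pter, chr2:12887122-12887222: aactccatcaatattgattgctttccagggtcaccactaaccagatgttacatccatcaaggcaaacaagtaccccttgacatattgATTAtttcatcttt
The Rarb pair lay 85.3 kb and the Pter pair 36.9 kb from the TSS. HOXC6 and HOXC9 values were 46.1 and 67.0 RPM at the Rarb pair and 29.5 and 81.0 RPM at the Pter pair. Both windows held TAAT without TTTAT.

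Sharing was asymmetric. A HOXC9 event lay within 100 bp of 80.11% of the strongest HOXC6 events (95% interval 79.3 to 80.9), whereas a HOXC6 event lay within 100 bp of 44.27% of the strongest HOXC9 events (43.3 to 45.2). The share followed rank in both lists. It was 94.0% among the 1000 strongest HOXC6 events and 71.8% among ranks 9001 to 10000, and for HOXC9 it was 65.5% and 33.6%. The asymmetry depended on list length, because the HOXC9 list was the longer. When each factor's 10000 strongest events were set against only the 10000 strongest of the other, the shares were 33.56% for HOXC6 and 35.06% for HOXC9. With the HOXC9 list shortened to the 17898 strongest events, 47.23% of HOXC6 events were shared.

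**Figure D1:**
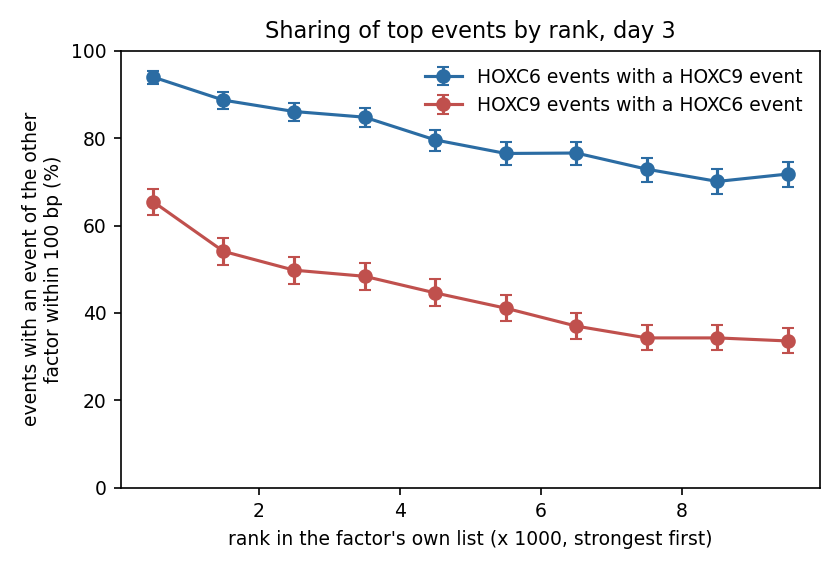
Share of events with an event of the other factor within 100 bp (y axis, percent) for each successive 1000 events of a factor's own list, strongest first (x axis, rank), with 95% Wilson intervals. HOXC6 (blue) goes from 94.0% to 71.8%, and HOXC9 (red) from 65.5% to 33.6%, so the HOXC6 points lie above the HOXC9 points at every rank.

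Sites of 1 factor only had a lower median than shared sites in each list, although the ranges overlapped. Quartiles were 2.19 and 3.66 RPM at HOXC6-only and 2.43 and 5.49 at shared HOXC6 sites. They were 7.20 and 12.8 RPM at HOXC9-only and 8.03 and 17.1 at shared HOXC9 sites. The median was 2.66 RPM at HOXC6-only sites and 3.41 at shared HOXC6 sites, and 9.0 at HOXC9-only sites against 11.1 at shared HOXC9 sites. The last event kept had 64.5 reads (1.89 RPM) in the HOXC6 list and 316.4 reads (6.04 RPM) in the HOXC9 list, and the first event left out had the same value in each. Thus the weakest HOXC9 event kept was, in RPM, above the median HOXC6 event kept (3.23 RPM). This order holds for scaling by all aligned reads and not by reads assigned to events, which were 28.4% for HOXC9 and 7.50% for HOXC6.

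HOXC6-only sites lay much closer to binding of the other factor. The median distance from a HOXC6-only site to the nearest HOXC9 event was 7.83 kb, and 409 of 1989 (20.6%) were between 100 and 500 bp from one. The median distance from a HOXC9-only site to the nearest HOXC6 event was 30.9 kb, and 489 of 5573 (8.77%) were in that range. These distances also follow list length, since the HOXC9 list held more events to be near to. HOXC9-only sites were more often next to a site of their own class, with 1202 (21.6%) within 1 kb of another compared with 92 (4.63%) of the HOXC6-only sites, although the HOXC9-only class was also the larger.

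Few sites of either class lay near a TSS, although introns held the largest share of both. HOXC6-only sites were within 1 kb of a protein-coding TSS in 50 of 1989 cases (2.51%) and HOXC9-only sites in 61 of 5573 (1.09%), a difference of -1.42 percentage points (HOXC9-only minus HOXC6-only, interval -2.24 to -0.743). Among the 5000 strongest events of each factor the difference was -0.613 points, with an interval that included 0 (-1.89 to 0.211). More than 100 kb separated 50.4% of HOXC9-only and 40.5% of HOXC6-only sites from any such TSS, a difference of 9.84 points (7.31 to 12.4). The median distance was 101 kb for HOXC9-only and 68.0 kb for HOXC6-only sites. Introns held 50.6% of HOXC6-only and 49.5% of HOXC9-only sites, and intergenic DNA held 45.0% and 47.7%. Coding exons held 0.654% and 0.251%.

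The classes also differed in base composition. GC content of the 101 bp windows was 42.0% ± 6.58 (SD over 1989 sites) at HOXC6-only sites and 39.2% ± 6.01 (SD over 5573 sites) at HOXC9-only sites, compared with 41.8% over 25340106 adjoining windows of that length across the same chromosomes. The difference was -2.77 points (interval -3.10 to -2.44). Repeat-masked sequence held 6.89% of HOXC6-only and 8.20% of HOXC9-only sites.

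The posterior Hox core separated the classes. TTTAT, searched on both strands, was in 4171 of 5573 HOXC9-only windows (74.8%) and in 540 of 1989 HOXC6-only windows (27.1%), a difference of 47.7 points (45.4 to 49.9). All windows of the genome held it in 33.8% of cases, so its share at HOXC6-only sites was below that of the genome and its share at HOXC9-only sites above it. Shared sites were intermediate, at 43.2% for shared HOXC6 and 55.0% for shared HOXC9 events. As described above for single sites, each of the 3 leading HOXC9-only windows held TTTAT.

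TAAT was common in all 4 classes. It was in 73.6% of HOXC6-only, 75.4% of shared HOXC6, 77.1% of HOXC9-only and 77.2% of shared HOXC9 windows, compared with 52.6% of all windows. The HOXC9-only and HOXC6-only shares differed by 3.48 points (1.28 to 5.74), but the sign of this difference was opposite in the day 4 lists (-3.50 points, -5.83 to -1.17). The motifs can overlap, as in TAATAAA, and were also counted together. TAAT without TTTAT was in 52.6% of HOXC6-only windows and 19.8% of HOXC9-only windows, both motifs were in 21.0% and 57.3%, and neither was in 20.3% and 5.33%.

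The TTTAT difference was present at matched base composition. Among windows of 40 to 50% GC, TTTAT was in 20.9% of 990 HOXC6-only and 66.2% of 2156 HOXC9-only sites, and among windows of 30 to 40% GC it was in 39.0% of 744 and 81.2% of 2845. It was also present close to TSSs. Within 1 kb of a TSS, 9 of 50 HOXC6-only sites (18.0%) and 46 of 61 HOXC9-only sites (75.4%) held TTTAT. These windows were not matched in base composition, with a mean GC content of 51.0% and 42.4%.

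Position within the site showed the same contrast. In the 20 bp bin centered on the event there were 361 TTTAT motifs per 1000 HOXC9-only sites, 2.89 times the mean of the bins centered 160 bp or more away (125). At HOXC6-only sites the central bin held 102 per 1000 against 80.4 in the outer bins, and the bin to its left on the plus strand held 53.3. TAAT was concentrated at the center of both classes, with 357 per 1000 at HOXC6-only and 359 at HOXC9-only sites, against 191 and 240 in the outer bins.

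**Figure D2:**
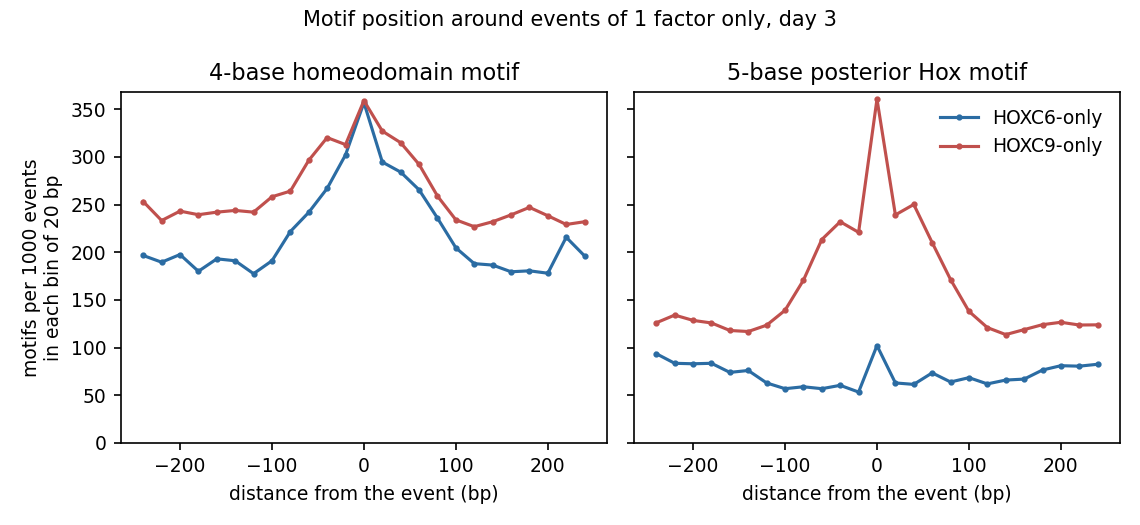
Motifs per 1000 events in bins of 20 bp (y axis) by distance from the event in bp (x axis), for the 4-base homeodomain motif TAAT (left) and the 5-base posterior Hox motif TTTAT (right), both strands counted, at HOXC6-only (blue) and HOXC9-only (red) sites. The left-hand curves meet at the center, at 357 and 359 per 1000, whereas the right-hand curves reach 102 and 361.

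Longer composite motifs were rare. TGATTTAT, which contains TTTAT and joins a PBX-type site to a posterior Hox core, was in 16 HOXC6-only windows (0.804%) and 308 HOXC9-only windows (5.53%), compared with 0.605% of all windows, a difference of 4.72 points (3.97 to 5.42). It was also in 4.12% of shared HOXC6 windows. In classes built from the lists of EBs grown without RA and SAG (described below) the order was opposite, at 3.26% of HOXC6-only (2.02 to 5.23) and 2.03% of HOXC9-only windows (1.63 to 2.54), with overlapping intervals. TGATTAAT, which contains TAAT, was in 1.06% and 1.53% of HOXC6-only and HOXC9-only windows (0.409% of all windows), with an interval of the difference that included 0 (-0.155 to 0.979). TGATTGAT was in 0.905% and 1.53% (0.394% of all windows). The MEIS-type hexamer TGACAG was in 10.7% and 10.9% (6.40% of all windows), a difference of 0.251 points (-1.39 to 1.79).

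HOXC6-only windows held more E-box sequences, the sites of basic helix-loop-helix factors. CAGATG was in 20.5% of HOXC6-only and 11.1% of HOXC9-only windows (7.67% of all windows), a difference of -9.44 points (-11.4 to -7.53). CAGCTG was in 11.7% and 6.39% (3.67% of all windows), a difference of -5.33 points (-6.94 to -3.83). Unlike TTTAT, the E-box sequences were not compared at matched base composition, and mean GC content was 42.0% and 39.2%. The CAGATG difference was not seen in classes built from EBs without RA and SAG, at 6.52% of HOXC6-only and 6.62% of HOXC9-only windows, whereas CAGCTG was at 10.4% and 5.81%. Shared HOXC6 windows were close to HOXC6-only windows for both, at 18.9% and 11.2%.

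All 2080 6-base sequences (each counted with its complement) were then compared between the classes, as a description. The 10 most in excess at HOXC9-only sites were headed by ATAAAA (42.6% of HOXC9-only and 6.49% of HOXC6-only windows) and CATAAA (40.8% and 5.23%), and 5 of the 10 contained TTTAT or its complement. The 10 most in excess at HOXC6-only sites were headed by CAGATG and AGATGG (15.5% of HOXC6-only and 8.06% of HOXC9-only windows). Only 1 of these 10 contained TAAT, namely CATTAG, at 14.3% of HOXC6-only and 7.82% of HOXC9-only windows.

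Lists of other Hox factors at day 3 were set against the classes. The HOXC8 libraries were Flag-tagged like those of HOXC6 and HOXC9, whereas the pooled lists of HOXA9, HOXD9 and HOXC13 each included 1 HA-tagged library and that of HOXC10 included 1 V5-tagged library among 3. HOXC8, the other brachial factor of the series, had an event within 100 bp of 91.5% of HOXC6-only sites and 48.0% of HOXC9-only sites, a difference of 43.5 points (41.6 to 45.2). The posterior factors had the opposite order. HOXA9 was at 32.7% of HOXC6-only and 86.0% of HOXC9-only sites, HOXD9 at 37.4% and 54.9%, HOXC10 at 16.4% and 50.2%, and HOXC13 at 4.52% and 61.6%. Shared pairs (8832, at least 1 partner among the strongest 10000) had the highest shares for HOXC8 (98.7%), HOXA9 (91.9%), HOXD9 (84.8%) and HOXC10 (72.6%), but not for HOXC13 (35.8%).

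These shares depend on the lengths of the lists, which ran from 26859 events for HOXC10 to 115819 for HOXC13. When each list was limited to its 10000 strongest events the order of the classes was kept in each of the 5, with HOXC8 at 43.8% of HOXC6-only and 8.77% of HOXC9-only sites, HOXA9 at 1.81% and 38.4%, HOXD9 at 4.68% and 21.6%, HOXC10 at 4.42% and 28.3%, and HOXC13 at 0.352% and 22.1%. Of the HOXC9 paralogs, HOXA9 thus had events at a larger share of HOXC9-only sites than HOXD9 in both comparisons.

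**Figure D3:**
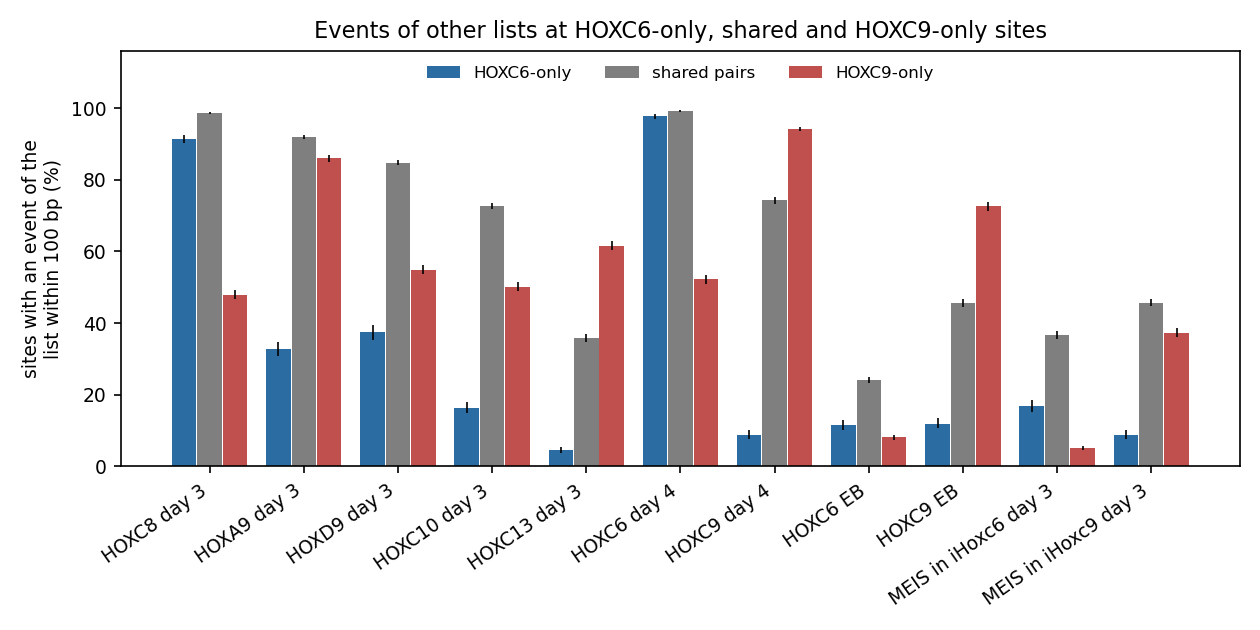
Share of HOXC6-only (blue), shared (gray) and HOXC9-only (red) sites with an event of another full list within 100 bp (y axis, percent; x axis, the list), with 95% Wilson intervals. HOXC8 and HOXC6 day 4 events are at over 90% of HOXC6-only sites (91.5% and 97.7%), and HOXC9 day 4 events are at 94.2% of HOXC9-only and 8.75% of HOXC6-only sites.

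The classes were then followed to day 4, after 48 h of Dox. At day 4 HOXC6 had an event at 97.7% of HOXC6-only sites and HOXC9 at 8.75%. A HOXC6 event without a HOXC9 event was at 1770 of 1989 (89.0%). The HOXC9 list was shorter at day 4 (44020 events) than at day 3 (74067). HOXC6-only sites had by definition no event in the longer day 3 list within 100 bp, so a low HOXC9 share follows in part. At HOXC9-only sites, HOXC9 had an event at 94.2% at day 4, but HOXC6 also had one at 52.2%, and 2422 of 5573 (43.5%) had a HOXC9 event without a HOXC6 event. The HOXC6 list held 69285 events at day 4 compared with 17898 at day 3, and the share of reads assigned to HOXC6 events was 31.1% and 30.4% in the day 4 libraries. Against the 10000 strongest HOXC6 day 4 events, 6.21% of HOXC9-only sites had one. How far the depth of the HOXC6 day 3 list set the size of the HOXC9-only class was not tested. When sites with a day 4 event of the other factor were left out, 1815 HOXC6-only and 2664 HOXC9-only sites remained and the TTTAT difference was 52.2 points (49.6 to 54.7).

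In EBs grown without RA and SAG and given Dox for 12 h, all 4 libraries of the 2 factors carried the same run code. There, HOXC9 had an event at 72.6% of the day 3 HOXC9-only sites and at 12.0% of the HOXC6-only sites, whereas HOXC6 had one at 11.5% of the HOXC6-only sites and 8.11% of the HOXC9-only sites. Thus 83.4% of HOXC6-only sites and 27.3% of HOXC9-only sites had an event of neither factor in these EBs. These shares rest on list length, as the EB lists held 128322 HOXC9 and 44678 HOXC6 events. Against the 10000 strongest events of each, HOXC9 had an event at 18.2% of HOXC9-only and 1.16% of HOXC6-only sites, and HOXC6 at 3.57% of HOXC6-only and 2.01% of HOXC9-only sites. Classes built in the same way from the EB lists alone held 491 HOXC6-only and 3686 HOXC9-only sites. Within this run the TTTAT difference was 54.5 points (50.5 to 58.1), the TAAT difference was 21.0 points (16.4 to 25.7) and the GC difference was -7.59 points (-8.25 to -6.94). At day 4, where 1 HOXC6 library shared a run code with both HOXC9 libraries, the classes held 2704 HOXC6-only and 2419 HOXC9-only sites and the TTTAT difference was 44.6 points (42.1 to 47.0).

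MEIS, a cofactor of Hox proteins, was mapped at day 3 in V5-tagged lines of each factor, with 1 library per line. In the line expressing HOXC6, MEIS events were at 16.8% of HOXC6-only sites, 36.7% of shared pairs and 5.02% of HOXC9-only sites. In the line expressing HOXC9, they were at 8.85%, 45.7% and 37.3%. The HOXC6-only minus HOXC9-only difference was thus 11.8 points (10.08 to 13.6) in the first line and -28.5 points (-30.2 to -26.6) in the second. The MEIS lists held 8154 and 22703 events. With the longer cut to the length of the shorter, the second line gave 2.11%, 26.5% and 20.8%. With 1 library in each line the difference between the lines could not be tested, and the library and the line cannot be told apart.

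Sites bound by both factors were compared by strength. Taking events of any rank, 12456 pairs were each other's nearest event within 100 bp, which was 69.6% of the HOXC6 list and 16.8% of the HOXC9 list. The pairs were tightly aligned, with a median offset of 0 bp and 10543 (84.6%) within 10 bp. The log2 ratio of HOXC9 to HOXC6 RPM had a median of 0.52 (1.44-fold, interval 0.49 to 0.55), quartiles of -0.34 and 1.47, and a range of -5.06 to 5.79. The sign of the median rests on the scaling, as it was -1.40 when reads were scaled by the reads assigned to events instead of all aligned reads. Ratios are therefore described relative to the median. Across pairs the log values of the factors had a Pearson correlation of 0.41 and a Spearman correlation of 0.37, over events that share a control library.

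Of the 12456 pairs, 2942 (23.6%) were over 2-fold above the median, toward HOXC9, and 2689 (21.6%) were over 2-fold below it, toward HOXC6. Because the ratios are centered on their own median, pairs to both sides of it follow by construction. At day 4, 8327 of the pairs (66.9%) were found again, and the day 4 ratio had a Pearson correlation of 0.71 with the day 3 ratio (Spearman 0.69). A pair could be refound only where both factors had a day 4 event. Of the 2942 pairs toward HOXC9, 2708 were refound, whereas of the 2689 toward HOXC6 only 1083 were. Of the refound pairs toward HOXC9, 2340 of 2708 (86.4%) were above the day 4 median. Of those toward HOXC6, 961 of 1083 (88.7%) were below it, and the pairs that were not refound have no day 4 ratio. In EBs without RA and SAG 2318 (18.6%) were found, with a Pearson correlation of 0.46 (Spearman 0.44).

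**Figure D4:**
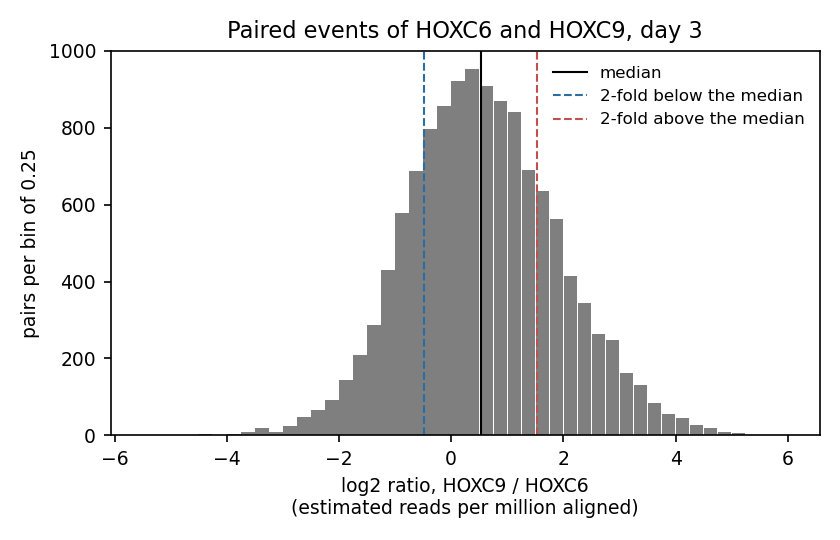
Number of pairs (y axis, in bins of 0.25) by log2 ratio of HOXC9 to HOXC6 RPM (x axis), with the median (0.52, solid line) and the limits 2-fold below (blue dashes) and above it (red dashes). The distribution has 1 mode, with 2689 pairs left of the lower limit and 2942 right of the upper limit.

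The pairs with the most extreme ratios, among those with at least 1 event in the strongest 10000, are shown as sequence because they set the same motifs side by side. The highest log2 ratios were at pairs nearest to Tex13a (5.79, at 0.912 and 50.5 RPM for HOXC6 and HOXC9), Nefm (5.59, at 1.10 and 53.1) and Zfp407 (5.57, at 1.44 and 68.2). These pairs lay 142, 167 and 123 kb from the TSSs named. Nefm encodes a neurofilament subunit. The first pair is printed here with the second.
pair site nearest Tex13a, chrX:138067806-138067906: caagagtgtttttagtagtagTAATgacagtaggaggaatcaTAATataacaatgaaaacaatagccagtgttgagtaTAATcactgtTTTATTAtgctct
pair site nearest Nefm, chr14:68291633-68291733: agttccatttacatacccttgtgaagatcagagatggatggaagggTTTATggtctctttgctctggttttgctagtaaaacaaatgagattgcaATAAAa
The lowest log2 ratios were at pairs nearest to Zfand5 (-5.06, at 26.9 and 0.804 RPM for HOXC6 and HOXC9), Nr2f1 (-4.38, at 21.1 and 1.02) and Kcnmb4 (-4.34, at 16.0 and 0.788). These pairs lay 105, 519 and 12.2 kb from the TSSs named. Nr2f1 encodes an orphan nuclear receptor and Kcnmb4 a subunit of calcium-activated potassium channels.
pair site nearest Zfand5, chr19:21166982-21167082: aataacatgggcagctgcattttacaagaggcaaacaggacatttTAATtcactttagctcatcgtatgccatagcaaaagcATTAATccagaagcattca
pair site nearest Nr2f1, chr13:78718386-78718486: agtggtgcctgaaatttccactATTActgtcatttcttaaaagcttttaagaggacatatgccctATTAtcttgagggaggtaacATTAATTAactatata
pair site nearest Kcnmb4, chr10:116461661-116461761: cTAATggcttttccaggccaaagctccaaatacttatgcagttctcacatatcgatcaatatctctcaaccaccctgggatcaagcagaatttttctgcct
All 3 windows toward HOXC9 held TTTAT and none of the 3 toward HOXC6 did, whereas TAAT was in 2 of 3 and in 3 of 3. The pairs were chosen by their ratio and not by their sequence. The weaker partners at Tex13a, Zfand5 and Kcnmb4 were near the lowest listed values, 0.880 RPM for HOXC6 and 0.763 for HOXC9. Such ratios are bounded by the limits of the lists.

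The motif content of the pairs followed the ratio. When the 12456 pairs were ordered by log2 ratio and divided into 5 equal groups, TTTAT was in 31.3, 38.4, 43.3, 50.3 and 62.4% of windows from the group most toward HOXC6 to the group most toward HOXC9. TAAT was in 75, 71.5, 73.5, 76.0 and 78.6%. TGATTTAT went from 2.65% in the first group to 6.62% in the last, and CAGATG from 20.3% to 15.2%. Between pairs over 2-fold to either side of the median the TTTAT difference was 28.7 points (26.2 to 31.2). A TSS lay within 1 kb of 1.80% of pairs toward HOXC9 and 2.53% of pairs toward HOXC6, with an interval of the difference that included 0 (-1.51 to 0.0339).

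Of the other factors at the same pairs, some changed along the ratio and some did not. From the first group to the last the median HOXC9 value went from 1.43 to 11.6 RPM and that of HOXC6 from 3.57 to 1.89. The ratio and the strength of HOXC9 events therefore cannot be told apart in these groups, for motifs or for other lists. HOXC8 events were at 95.7% to 97.4% of every group, which left little room for a rise. HOXA9 went from 78.9% to 97.1%, HOXC10 from 50.3% to 81.5% and HOXC13 from 15.2% to 54.4%. MEIS of the HOXC9 line went through 24.3, 28.7, 40.3, 48.0 and 59.7% over the 5 groups, and MEIS of the HOXC6 line was at 27.7% to 32.6%. Between pairs over 2-fold to either side the MEIS difference was 34.4 points (32.0 to 36.8) in the HOXC9 line and 0.540 points (-1.89 to 2.97) in the HOXC6 line.

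**Figure D5:**
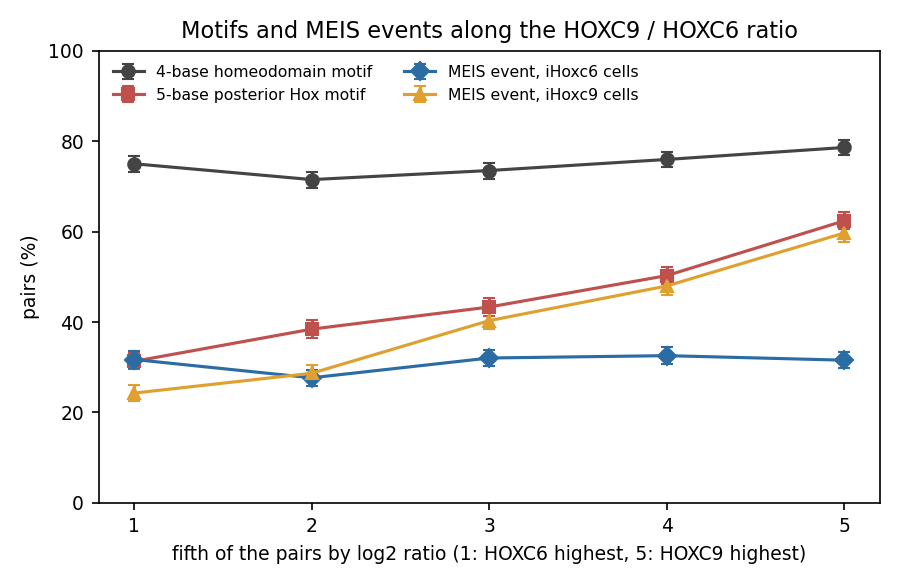
Share of pairs (y axis, percent) with TAAT (the 4-base homeodomain motif), with TTTAT (the 5-base posterior Hox motif) and with a MEIS event of each line, in 5 equal groups of the 12456 pairs by log2 ratio (x axis, 1 most toward HOXC6, 5 most toward HOXC9), with 95% Wilson intervals. TTTAT goes from 31.3% to 62.4% and MEIS of the HOXC9 line from 24.3% to 59.7%, whereas MEIS of the HOXC6 line is at 31.7% and 31.6%.

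Sites were assigned to the protein-coding gene with the nearest TSS. Of 21657 genes, 1514 (6.99%) had at least 1 HOXC6-only site, 2480 (11.5%) at least 1 HOXC9-only site and 3780 (17.5%) at least 1 shared pair. Over all genes, 73.7% of the sites of 1 factor only were HOXC9-only. Genes in large territories can gather more sites, so the territory, the sequence nearer to a gene's TSSs than to any other, is given for the genes and groups below. Its median was 0.046 Mb over all genes.

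The genes with most sites of 1 factor only had territories of 0.360 to 3.71 Mb, apart from Def8. The genes with most HOXC9-only sites were Adgrl3 (a latrophilin adhesion receptor, 22 sites in 3.29 Mb, with 0 HOXC6-only sites and 5 shared pairs) and Flrt2 (a latrophilin and Unc5 ligand, 20 in 3.20 Mb, with 1 and 7). They were followed by Robo2 (a Slit receptor, 19 in 1.71 Mb, with 5 and 28), Auts2 (19 in 1.94 Mb, with 1 and 35) and Zfp608 (18 in 1.23 Mb, with 9 and 38). Next were Pcdh9 (a protocadherin, 18 in 3.71 Mb), Arrdc3 (17 in 1.57 Mb), BC052040 (16 in 0.705 Mb), Robo1 (16 in 1.97 Mb) and Epha7 (an Eph receptor, 16 in 2.81 Mb). Most HOXC6-only sites were at Def8 (12 in 0.0450 Mb) and Zfp608 (9), then Fhit (7 in 1.72 Mb), Fam198b, Npas3, Zfhx3, Robo2 and Efna5 (5 each in 0.476 to 2.24 Mb), and Dnajc1 and Clstn2 (4 each, in 0.360 and 0.459 Mb). Robo2 and Zfp608 were thus among the 10 leading genes of both classes, beside 28 and 38 shared pairs.

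The Def8 sites formed a tight group that differed from their class in motifs and in events of other lists. The 12 events lay within 6.79 kb of introns on chromosome 8, at 1.95 to 3.92 RPM, and 2 held TAAT and 0 held TTTAT. Their mean GC content was 51.4%, beside 42.0% for the class. None of the 12 had a HOXC8, HOXA9 or HOXD9 event, and 3 had a HOXC6 event at day 4, whereas HOXC8 had events at 91.5% of the whole class and HOXC6 at day 4 at 97.7%. A HOXC6 event in EBs without RA and SAG was present at 5 of the 12, beside 11.5% of the class.

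Genes with known roles in the spinal cord were examined by group. Over all genes there were 8832 shared pairs, 5573 HOXC9-only and 1989 HOXC6-only sites, and this order by itself is therefore no property of a group. For TALE cofactors (9 genes, 3.16 Mb in all) there were 53 shared pairs, 36 HOXC9-only and 8 HOXC6-only sites, of which Meis1 had 20, 7 and 4, Meis2 had 11, 11 and 2, and Pbx3 had 5, 11 and 0. Ventral progenitor genes (2.81 Mb) had 52, 20 and 8, including 16, 6 and 4 at Nkx6-1 (a progenitor homeodomain factor) and 5, 1 and 2 at Olig2 (the determinant of motor neuron progenitors). Slit, Robo and netrin genes (10.4 Mb) had 88, 66 and 13, and Eph receptors and ephrins (13.24 Mb) had 71, 59 and 10. Type II cadherins (22.0 Mb) had 47, 52 and 7, with more HOXC9-only sites than shared pairs.

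Genes of motor columns were counted in the same way. Genes of limb-level columns and pools (13.22 Mb) had 75 shared pairs, 62 HOXC9-only and 10 HOXC6-only sites, of which Isl1 had 7, 8 and 1 and Epha4 (a guidance receptor of limb motor axons) had 10, 14 and 0. Genes of thoracic and axial columns (4.57 Mb) had 22, 14 and 4, including 7, 6 and 3 at Zeb2 and 9, 6 and 0 at Mecom. General motor neuron genes (2.21 Mb) had 16, 8 and 3, all 8 of the HOXC9-only sites being at Isl1, and retinoic acid pathway genes (2.83 Mb) had 28, 11 and 2. Among the lists that had a site of 1 factor only, 71.4% to 100% of such sites were HOXC9-only, beside 73.7% over all genes, and 9 of the 11 lists lay above that value. The lists with the largest territories were at 88.1% (77.5 to 94.1) for type II cadherins and 85.5% (75.3 to 91.9) for Eph receptors and ephrins. Limb-level genes were at 86.1% (76.3 to 92.3) and Slit, Robo and netrin genes at 83.5% (73.9 to 90.1). Over all sites, HOXC9-only sites were more often over 100 kb from a TSS than HOXC6-only sites (50.4% and 40.5%). Whether the share follows territory or the kind of gene was not tested. Sites of a gene neighbor each other, so these intervals are too narrow. Some genes, such as Epha4 and Cdh20, are in more than 1 list. Of the 149 genes listed, 48 had 0 shared pairs, HOXC9-only or HOXC6-only sites, which leaves weaker events uncounted.

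The Hox clusters themselves were sites of dense binding by both. Within 50 kb of the 4 clusters there were 59 pairs, 24 (40.7%) over 2-fold toward HOXC9 and 7 (11.9%) over 2-fold toward HOXC6, beside 23.6% and 21.6% of all pairs. These pairs neighbor each other and are not independent. The clusters held 50 of the strongest HOXC6 and 54 of the strongest HOXC9 events, of which 2 were HOXC6-only and 17 HOXC9-only. Sites assigned to paralogs 1 to 5 included 45 shared pairs, 9 HOXC9-only and 2 HOXC6-only sites. Paralogs 6 to 8 had 1 shared pair, 6 HOXC9-only and 0 HOXC6-only sites, and the 16 genes of paralogs 9 to 13 had 0 of these sites. These counts cover only the strongest events and pairs that include one. Weaker HOXC9 events were nearest to genes of paralogs 9 to 13. Examples were 4.68 RPM at 0.148 kb from the Hoxa9 TSS and 2.87 RPM at 1.19 kb from the Hoxd9 TSS.

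Single events at the clusters ranked high in both lists. HOXC6 and HOXC9 values were 30.7 and 55.5 RPM in an intron near the Hoxc5 TSS, and 14.0 and 80.9 in an intron near the Hoxc4 TSS. They were 8.12 and 70.1 in an intron near the Hoxb4 TSS, 7.07 and 66.8 at 3.52 kb from the Hoxb5 TSS, and 6.63 and 39.2 in an intron near Hoxd3. Relative to the median pair the Hoxc5 event was at 0.33 on the log2 scale and the other 4 were at 2.00 to 2.72. HOXC9-only events included 33.9 RPM at the Hoxc4 TSS, 29.9 at 7.53 kb from the Hoxc8 TSS, 26.0 in the Hoxc6 gene and 21.6 next to the Hoxb8 TSS.

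Foxp1 and Aldh1a2, genes used by limb-level motor neurons, both had shared and HOXC9-only sites. Foxp1, whose product is a Hox accessory factor that sets the limb-level column, had 16 pairs within 50 kb of the gene, 11 HOXC9-only sites and 1 HOXC6-only site (6.86 RPM). An intronic Foxp1 pair had 2.12 and 52.7 RPM for HOXC6 and HOXC9, a log2 ratio 4.11 above the median, and another had 12.6 and 44.9. Aldh1a2, which encodes the retinoic acid synthesizing enzyme of limb-level motor neurons, had 5 pairs and 1 HOXC9-only site (11.0 RPM), and its strongest pair had 13.5 and 28.4 RPM, in an intron nearest to the Aqp9 TSS. The 3 intronic pairs nearest to the Aldh1a2 TSS had 3.04 and 22.5, 1.24 and 9.80, and 0.912 and 1.43.

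Both classes were found on every chromosome examined. HOXC9-only sites per HOXC6-only site, relative to all chromosomes, ranged from 0.667 on chromosome 7 to 1.62 on chromosome 18. The X chromosome was sparse in both, at 0.193 HOXC6-only and 0.462 HOXC9-only sites per Mb, compared with 0.755 and 2.12 over all gene territories.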

How the data were processed

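Binding of Flag-tagged HOXC6 and HOXC9 was measured by ChIP-seq in 2 libraries per factor at day 3. The authors aligned reads to mm10 with Bowtie and called events with MultiGPS over the pooled libraries of a condition, against a control library that both day 3 lists shared. Bowtie 1.0.1, Picard 2.8.2 and edgeR 3.22.5 are listed in the submitters' processing notes. The deposited values used here are estimated counts of ChIP reads per event, which need not be whole, and the log2 of the caller's q-value, used only for an alternative ranking. Deposited columns of comparisons between conditions (edgeR log2 CPM, log2 fold and log2 P) were not used, and neither were the BED files.

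Estimated counts were divided by the aligned reads (in mega, M) of the pooled libraries, 34.1 M for HOXC6 and 52.4 M for HOXC9, and are given as RPM. The lowest listed event had 30.0 reads for HOXC6 and 40.0 for HOXC9, 0.880 and 0.763 RPM, and weaker sites are not listed. At rank 10000, 22 HOXC6 events and 5 HOXC9 events were tied and were ordered by position. Of the listed events, 2 for HOXC6 and 18 for HOXC9 lay outside chromosomes 1 to 19 and X. TSSs, exons and introns came from GENCODE mouse release 21 (GRCm38), with TSSs of protein-coding genes, and sequence from RefSeq GRCm38.p6. All 74067 short sequences deposited with HOXC9 events were found at or next to their positions in that genome. Motifs were counted on both strands in 101 bp windows. Since the values are of pooled libraries, shares carry Wilson intervals and differences Newcombe intervals, and the median of the ratios carries an interval from its order statistics. The interval functions, pairing and motif counts were tested on simulated data. Python 3.11.15, numpy 2.4.6, pandas 2.3.3 and matplotlib 3.10.9 were used.

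The 2 factors, the sites and the gene lists were chosen with earlier results of these data known, so no list is independent evidence. Named sites are the 3 strongest of each class and the 3 highest and 3 lowest ratios among pairs with at least 1 of the 10000 strongest events, with sequence printed except on chromosome 18. Named genes are the 10 with most HOXC6-only and the 10 with most HOXC9-only sites, ties going to the smaller territory, genes of 12 lists with at least 3 sites, and events at the Hox clusters, Foxp1 and Aldh1a2, from which examples are given. Some of the sites and genes that this rule names are not reported here. Other sharing distances, ranks, list lengths, windows, stages and scalings were tried.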

Additional observations from a re-analysis of the deposited data

Results flagged for a closer look

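The TAAT share differed in sign between stages. HOXC9-only minus HOXC6-only was 3.48 points in the day 3 lists and -3.50 points in classes built from the day 4 lists. The difference between the stages was not tested, because each list pools its libraries.

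MEIS events split the classes in opposite directions in the 2 lines. HOXC6-only minus HOXC9-only was 11.8 points in cells expressing HOXC6 and -28.5 points in cells expressing HOXC9. With 1 MEIS library per line the difference between the lines was not tested.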

How the results depend on the processing

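No paired analysis was possible because the event lists pool the libraries of a condition and hold no value for replicate 1 or 2, and for the same reason no replicate could be left out. Of 60 alternative values, 22 stayed within the interval or 1.5 times the reported value, 36 moved beyond it and 2 changed sign. Causes were not tested, beyond what fewer events or another length imply by construction.

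Sharing (HOXC6 then HOXC9) was 75.7% and 40.87% at 50 bp, 84.2% and 49.16% at 500 bp, 86.64% and 52.48% for the top 5000, and 33.56% and 35.06% between the top 10000 of each list. With the HOXC9 list at the length of the HOXC6 list, 47.23% of HOXC6 events were shared. The TTTAT difference kept its direction, at 50.6 points for the top 5000, 43.7 with the shortened HOXC9 list, 44.6 at day 4, 54.5 in EBs, 34.7 in windows of 25 bp to each side and 44.4 in windows of 100 bp. Leaving out sites with a day 4 event of the other factor, an alternative chosen after seeing the data, gave 52.2. The TAAT difference was -3.50 at day 4 and 21.0 in EBs. The TSS difference was -0.613 for the top 5000, with an interval that included 0 (-1.89 to 0.211), -3.14 in EBs, -3.66 within 5 kb and -2.27 with the TSSs of all genes. The GC difference was -2.36 for the top 5000, -3.28 with the shortened list, -7.59 in EBs, -3.51 without sites that had a day 4 event of the other factor, and -2.36 and -3.16 in windows of 25 and 100 bp to each side. The median log2 ratio was -1.40 when scaled by reads assigned to events. Pairs past the fold limit numbered 5631 at 2-fold, 2863 at 3-fold and 1097 among pairs of top events. The HOXC8 difference was 37.9 at 500 bp, 35.02 against the top 10000 HOXC8 events and 72.0 without sites that had a day 4 event of the other factor. The MEIS difference of the HOXC6 line was 15.1 at 500 bp, also chosen after seeing the data, and 14.5 without those sites. In the HOXC9 line it was -18.7 at the shorter list length and -14.6 without those sites.

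Reads assigned to events were 7.50% for HOXC6 and 28.4% for HOXC9, and a site missing from either list is not shown to be unbound.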
